A study of Mus musculus with 4 samples.

Results

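The genes described here encode proteins of the cytosolic ribosome. A gene was a member when its symbol was Rpl or Rps followed by a digit, or Rpsa, Rplp0, Rplp1 or Rplp2. The S6 kinase genes, pseudogene symbols and Rps4l were left out. In the annotation of the arrays 62 of 19938 genes with a probe set of their own fitted this rule, 38 of the large and 24 of the small ribosomal subunit by symbol. A probe set is the group of probes whose signals are combined into 1 value. Where a member had several probe sets, the one with the highest mean signal was used. Of the 62 members, 59 had a linear signal over 50 on at least 1 array, as had 12667 genes that were tested in all.

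The RNA came from scraped colon of male mice of the inbred laboratory strain C57BL/6J. Mice aged 4 or 21 months ate a purified low-fat diet (10% of energy as fat) or a high-fat diet (45%) for 2 weeks. Palm oil took the place of lard in both diets. All mice had eaten the low-fat diet before the diets were split. The 4 groups, young low-fat, young high-fat, old low-fat and old high-fat, each gave 1 array, on which the pooled RNA of 6 young or 8 old mice was hybridized. A pool hides the spread between its mice, and no group had a second array.

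Ribosomal proteins are made in nearly fixed proportion to each other, because each ribosome carries a single copy of almost every one of them. Their mRNAs are among the most abundant of a cell and begin with a run of pyrimidines, the 5′ terminal oligopyrimidine (TOP) motif, through which mTOR signalling sets their translation more than their amount. In the colon, dividing crypt cells and secretory cells carry many ribosomes. The proteins fall into those of the large subunit, which joins amino acids, those of the small subunit, which reads the mRNA, and the stalk proteins, which recruit translation factors.

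The symbol rule takes a few genes that are no standard ribosomal protein. Rps19bp1 encodes a protein that binds the product of Rps19, and Rps23rg1 is a retrogene. Rpl7l1, Rpl10l, Rpl3l, Rpl39l, Rps27l and Rpl32l are named for a ribosomal protein that they resemble. Rpl10l, Rpl39l and Rpl3l were the 3 members that did not pass the signal floor. The linear signal of Rpl10l was 28.0 on the young low-fat, 45.6 on the young high-fat, 27.8 on the old low-fat and 31.2 on the old high-fat array. That of Rpl39l lay between 13.3 and 14.7, and that of Rpl3l between 19.2 and 23.0.

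The annotation named 20 further genes whose symbols fit the rule only beside other genes, among them Rpl3, Rpl11, Rpl13a and Rps24, and these were not analysed here. Of the 62 members 24 had 1 probe set and 38 had several, up to 14 for Rps12.

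The start sites show a feature that the symbol rule did not use. RefSeq promoter sequences were found for 51 of the 62 members, and 39 of these (76.5%) held a run of at least 8 pyrimidines within 50 bases of the annotated start, against 39.3% of 27025 genes. The windows below carry the longest run in capitals, on the coding strand of assembly GRCm38.p6, each 30 bases long and written 5′ to 3′. The first 5 belong to genes with wide differences between the arrays, and Rplp0 is a common reference gene. Rpl9 and Rps25 are among the flattest by the probe set used.
Rpl10a (chr17:28328572-28328601, + strand): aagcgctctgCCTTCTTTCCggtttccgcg
Rpl38 (chr11:114668568-114668597, + strand): ggaagcctcgTTCTTTCCCCgttctcttcg
Rpl41 (chr10:128549119-128549148, - strand): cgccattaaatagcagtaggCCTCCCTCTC
Rpl6 (chr5:121204521-121204550, + strand): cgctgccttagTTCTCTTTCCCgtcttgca
Rpl19 (chr11:98026944-98026973, + strand): gcggcccacaagCTCTTTCCTTTCgctgct
Rplp0 (chr5:115559466-115559495, + strand): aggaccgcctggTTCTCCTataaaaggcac
Rpl9 (chr5:65391383-65391412, - strand): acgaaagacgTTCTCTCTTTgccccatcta
Rps25 (chr9:44407684-44407713, + strand): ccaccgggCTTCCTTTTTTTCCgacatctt

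The run was 10 bases long in Rpl10a, Rpl38 and Rpl9, 12 in Rpl19 and 14 in Rps25. In Rpl41 it was at least 10, since it reached the edge of the sequence searched. In Rplp0 the longest run was 7 bases, so it does not count among the 39. Genes with wide differences and genes that were flat thus both carry such runs. Counted from the annotated start, the first base of the run lay at -2 in Rpl38 and at -22 in Rps25. In the other genes shown it lay between 11 (Rplp0) and 40 (Rpl41). A run within 50 bases of the start need not begin the mRNA, as a TOP motif does. The median range over the 4 arrays was 0.19 log2 units for the 37 tested members with a run of at least 8 and 0.25 for the 11 with a shorter one. Other short motifs were searched on both strands of the whole RefSeq promoter windows. CCGGAAG, the core bound by ETS factors, was in 37.3% of the 51 member promoters and in 9.93% of all. GGGCGG, the core of the Sp1 site, was in 58.8% and 38.2%, and TATAAA was in 11.8% and 15.7%. AAGATGGC, the YY1 core, was in 5.88% and 3.19%. None of these motifs contains another. A match describes the letters of this window only.

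Signals of the members were high and nearly the same on all arrays. Their median log2 signal was 11.47 on the young low-fat, 11.45 on the young high-fat, 11.41 on the old low-fat and 11.47 on the old high-fat array. The medians over all genes tested were 7.91, 7.92, 7.94 and 7.97 in the same order. Over the 59 members the range between the highest and lowest array had a median of 0.20 log2 units, against 0.26 over all genes tested. Among genes with a mean log2 signal over 10, the median range was 0.16 for 42 members and 0.21 for 1486 other genes. The range stayed under 1.2-fold (0.26 log2 units) in 40 of the 59 members and in 49.7% of all genes tested.

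**Figure D1:**
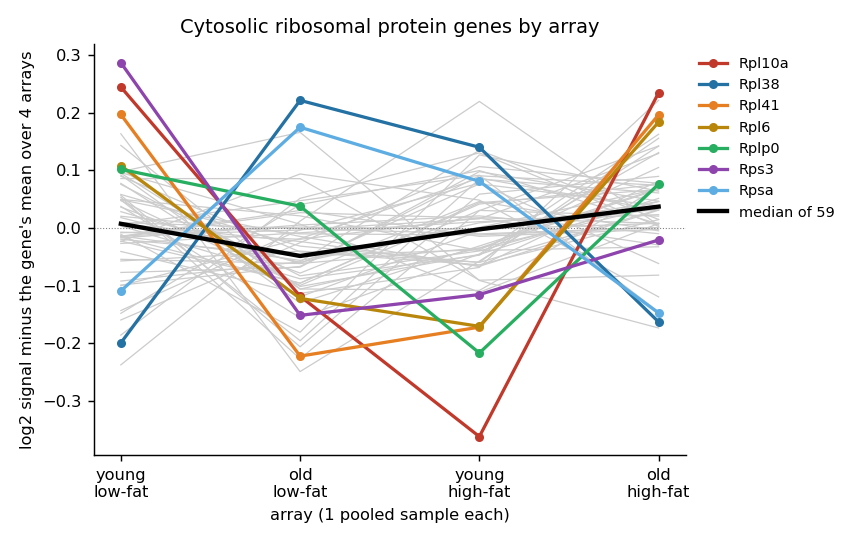
Log2 signal of each of the 59 members on each array, minus the mean of that gene over the 4 arrays (vertical axis), for the 4 arrays (horizontal axis). Grey lines are single members, coloured lines are 7 named members and the black line is the median, which moves between -0.05 on the old low-fat and 0.04 on the old high-fat array.

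The flattest members came from both subunits. Rpl9, a large subunit protein, gave log2 signals of 12.84 on the young low-fat, 12.85 on the young high-fat, 12.85 on the old low-fat and 12.86 on the old high-fat array. Its 4 values span 0.02 log2 units. Rpl23, which lies on the face of the large subunit that meets the small one, gave 11.87, 11.85, 11.86 and 11.87 in the same order. Rpl10, an X-linked gene for a protein that joins the large subunit late in its assembly, gave 13.41, 13.45, 13.43 and 13.42. The ranges of these genes and of Rpl36a and Rps25 were at most 0.04. Rps25 was this flat only in the probe set used. Over its 6 probe sets the diet difference in old mice ran from 0.03, in the one used, to 0.20, with a median of 0.14.

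To ask whether age changed these mRNAs, the old array was set against the young array on each diet. No member differed more than 2.0-fold, the threshold of the study, on the low-fat diet, where 0.426% of all genes tested did. None did on the high-fat diet, where 0.663% did. The median age difference of the 59 members was -0.04 log2 units under low-fat and 0.02 under high-fat feeding, beside 0.01 over all genes tested in each. Each group has 1 array, so these differences carry no p-value and were not checked in replicates.

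At a lower threshold of 1.2-fold, 2 members were higher and 5 lower on the old array under the low-fat diet, beside 12.1% and 10.4% of all genes tested. Under the high-fat diet 5 were higher and 1 was lower, beside 14.8% and 10.3%. These shares of the members were below those of all genes, as a count and with no test. For the genes lower with age on the low-fat diet this turned when each array was centred on its median, with 14 members (23.7%) against 18.7% of all genes. On the low-fat diet 21 of the 59 members lay above 0 (35.6%, against 51.1% of all genes), and on the high-fat diet 37 did (62.7%, against 53.0%). The largest age difference was 1.35-fold under low-fat and 1.51-fold under high-fat feeding.

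To ask whether fat in the diet changed them, the high-fat array was set against the low-fat array at each age. In young mice no member passed 2.0-fold, where 0.118% of all genes tested did, and the median difference of the members was -0.01. There 4 members were over 1.2-fold higher and 5 lower, beside 10.8% and 11.4% of all genes. In old mice none passed 2.0-fold either, beside 0.103% of all genes, and the median was 0.10 log2 units. There 8 members were over 1.2-fold higher (10.6% of all genes were) and 3 lower (8.85%).

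The diet difference in old mice was the comparison in which the members leaned most to one side. It lay above 0 in 45 of 59 members (76.3%), against 51.5% of all genes tested and 743 of the 1486 other genes with a mean log2 signal over 10. The shift was higher in the small subunit, with a median of 0.13 and 20 of 24 genes above 0, than in the large, with 0.06 and 25 of 35. The difference between subunits was not tested. Of the members 25 (42.4%) had their lowest signal on the old low-fat array, against 23.1% of all genes and 22.6% of the 1486. Only 6 (10.2%) had their highest signal there, against 24.3% of all genes.

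**Figure D2:**
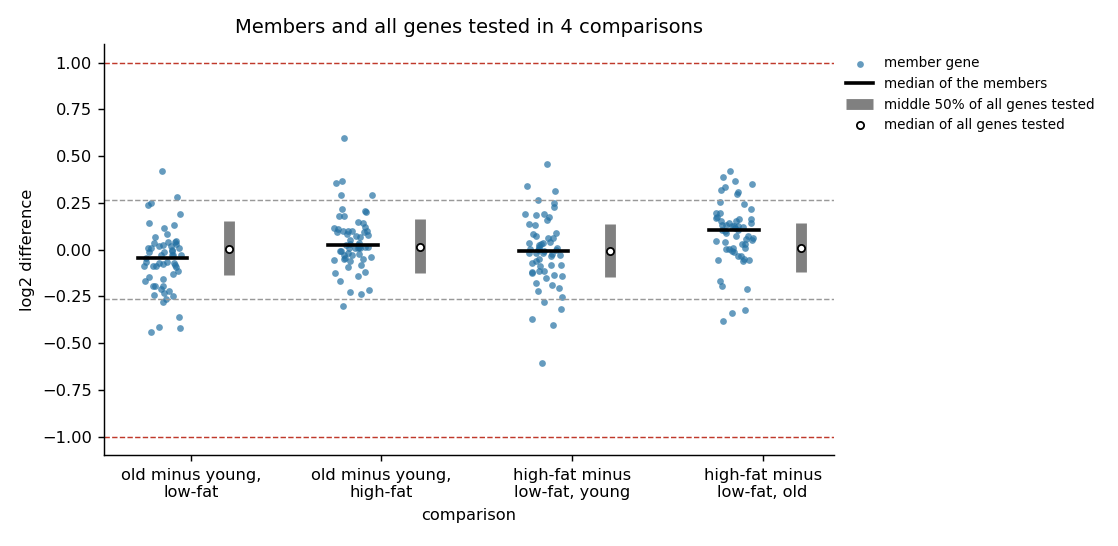
Log2 difference (vertical axis) of the 59 members, as points, in each of 4 comparisons (horizontal axis), with their median as a black bar. The grey bar spans the middle 50% of all 12667 genes tested and the open circle is their median. Dashed lines mark 1.2-fold and 2.0-fold in both directions. No member reaches 2.0-fold, and the median of the members is farthest from 0, at 0.10, for diet in old mice.

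The scrapings held more than epithelium, and lists of cell type markers moved between arrays. All 12 epithelial genes of the list passed the floor, and their summed linear signal was 77079 on the young low-fat, 72978 on the young high-fat, 70233 on the old low-fat and 78348 on the old high-fat array. Their sum was thus higher on the young low-fat and old high-fat arrays, as were Rpl10a, Rpl41 and Rpl6 described below. The median log2 signal of the 12 genes did not follow this pair, with 12.17, 12.04, 12.13 and 12.10 in the same order. The median difference of the 12 genes was -0.12 for age under low-fat and 0.13 under high-fat feeding, -0.09 for diet in young and 0.20 for diet in old mice. Krt19, a keratin of simple epithelia, had the widest age differences of the 12 genes, -0.56 and 0.47 on the low-fat and high-fat diets. Not all of the 12 moved that way. Car1 had -0.0007 and -0.12, Slc26a3 had 0.04 and -0.15, and Lgals4 had 0.01 and 0.02. The 10 smooth muscle genes had a summed linear signal of 4288 on the young high-fat array and between 1785 and 2054 on the other 3. The 6 adipocyte genes tested of 8 summed to 633 on the young high-fat and to 2610 on the old high-fat array, with 1145 and 1276 on the low-fat arrays. The 9 lymphocyte genes tested of 12 summed to 730 and 746 on the young and to 1227 and 1303 on the old arrays. The 5 hepatocyte genes tested of 6 summed to 1136 on the old low-fat array and to between 526 and 744 on the others. The log2 signal of albumin (Alb) was 8.47 on the old low-fat array and between 4.90 and 5.07 on the other arrays. The 4 plasma cell genes tested of 5 summed to 1211 and 1250 on the young and to 2038 and 1861 on the old arrays, and the 5 macrophage genes tested of 7 to 694 and 696 on the young and to 1126 and 1138 on the old. The 11 genes of dividing cells tested of 12 summed to between 4218 and 4453 on all arrays. The part of these cells in the members' differences was not tested. In such a mixture a smaller share of a cell type cannot be told apart from less RNA per cell.

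On the plot of the age difference on both diets, the members run from the upper left to the lower right. For 48 of 59 members the age difference had opposite signs on the low-fat and high-fat diets (81.4%), against 60.7% of all genes and 71.1% of the 1486 other genes of high signal. Over the 59 members the age differences on both diets, which share no array, had a Pearson correlation of -0.69. The same correlation was -0.49 over the 1486 genes and -0.03 over all genes tested. Members are not independent replicates, and all points of a comparison share the same pair of arrays. Among the 21 members with 1 probe set the correlation was -0.52, with opposite signs in 18.

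**Figure D3:**
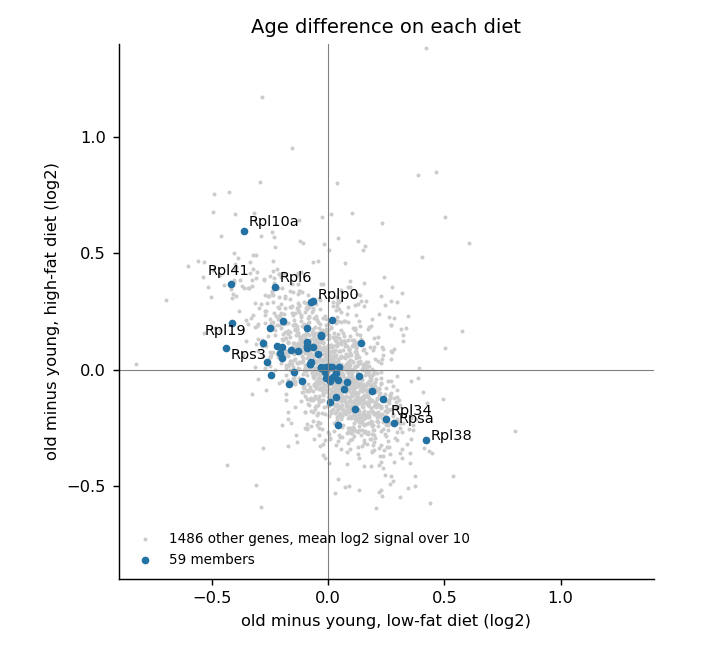
Age difference (old minus young, log2) under both diets, with low-fat along the horizontal and high-fat along the vertical axis. Blue points are the 59 members and grey points 1486 other genes with a mean log2 signal over 10. The members lie along a falling line from Rpl10a and Rpl41 to Rpl38, with r of -0.69.

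Averaged over both diets, the age differences of the members nearly cancelled. The mean of both age differences had a standard deviation (SD) of 0.06 log2 units over the 59 members and ran from -0.17 to 0.13. The mean diet difference had an SD of 0.10. The age difference on the high-fat minus that on the low-fat diet, divided by 2 to stand on the same scale, had an SD of 0.15. Its undivided median was 0.11 over the members, 0.02 over all genes and -0.05 over the 1486, and it ran from -0.72 to 0.96. The members thus varied more along the pairing of young low-fat with old high-fat against the other arrays than along age or diet. Undivided, the SD along this pairing was 0.30 over the members and 0.37 over all genes tested, so such variation was not particular to the members. Probe sets to which no gene is assigned moved along the same pairing, with medians of 5.63 on the young low-fat and 5.65 on the old high-fat array, and 5.82 and 5.80 on the young high-fat and old low-fat arrays. Whether the arrays or the mice gave rise to the pairing was not tested.

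Rpl10a, a protein of the L1 stalk that guides spent tRNA off the ribosome, varied most. Its log2 signal was 12.27 on the young low-fat, 11.66 on the young high-fat, 11.91 on the old low-fat and 12.26 on the old high-fat array. The young low-fat and old high-fat arrays were both above the other two. On the low-fat diet the old array was lower by 1.29-fold (log2 difference -0.36), and on the high-fat diet it was higher by 1.51-fold (0.60).

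Rpl41, which encodes a very short protein, was likewise higher on that pair of arrays, with 11.95, 11.58, 11.53 and 11.94 on the low-fat (young), high-fat (young), low-fat (old) and high-fat (old) arrays. Its age difference was -0.42 under low-fat and 0.37 under high-fat feeding. Rpl6, another large subunit protein, gave 11.71, 11.43, 11.48 and 11.78. The diet difference of Rpl6 was -0.28 in young and 0.31 in old mice. Rpl19, which forms a bridge between the subunits, gave 11.90, 11.68, 11.49 and 11.88, with an age difference of -0.41 under low-fat and 0.20 under high-fat feeding.

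Rpl38, known from mouse mutants with a malformed skeleton, moved the opposite way. Its log2 signal was 11.77 on the young low-fat, 12.11 on the young high-fat, 12.19 on the old low-fat and 11.81 on the old high-fat array. The age difference was 0.42 under low-fat and -0.30 under high-fat feeding. Rpl34, a large subunit protein with 7.93, 8.39, 8.18 and 8.18 in the same order of arrays, rested on 1 probe set and was highest on the young high-fat array. Rpl30, also with 1 probe set, was 8.46, 8.78, 8.70 and 8.65.

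Age differences over 1.2-fold in opposite directions on both diets were found in 3 members, Rpl10a, Rpl38 and Rpl41, beside 5.87% of all genes tested. No member passed in the same direction on both diets, beside 3.43%. For diet, 4 members passed in opposite directions at both ages, Rpl10a, Rpl38, Rpl41 and Rpl6, beside 6.66%, and none in the same direction, beside 0.616%. For these 4 genes all probe sets of the gene had the sign of the one used in both age and both diet comparisons. The 3 probe sets of Rpl41 held identical values on all 4 arrays, so their shared sign adds nothing. The share of members, 3 or 4 of 59, is near that of all genes.

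The stalk proteins include the reference gene of the study. Rplp0, the stalk base known to PCR users as 36B4, was the gene to which the PCR measurements of the study were scaled. Its log2 signal was 13.31 on the young low-fat, 12.99 on the young high-fat, 13.24 on the old low-fat and 13.28 on the old high-fat array. The young high-fat array was thus lower than the other 3, which lay between 13.24 and 13.31. The age difference was -0.06 under low-fat and 0.29 under high-fat feeding (1.23-fold), and the diet difference was -0.32 in young mice. The second probe set of Rplp0 gave an age difference of 0.20 on the high-fat diet and a diet difference of -0.21 in young mice. Rplp1, its partner in the stalk, was 12.83, 12.75, 12.81 and 12.75, a range of 0.09. Rplp2, the other partner, was 6.54, 6.73, 6.62 and 6.67, near the median of all probe sets of the arrays, 6.12 to 6.20.

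In the small subunit Rps3, which lies at the mRNA entry and also acts in DNA repair, had the lowest age difference on the low-fat diet of all members. Its log2 signal was 11.85 on the young low-fat, 11.45 on the young high-fat, 11.41 on the old low-fat and 11.55 on the old high-fat array. The young low-fat array was above the other 3, which lay between 11.41 and 11.55. Rps3 had 1 probe set, so no second one could be set beside it. The age difference was -0.44 under low-fat and 0.09 under high-fat feeding.

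Rpsa, also known as a precursor of the laminin receptor, gave 11.60, 11.79, 11.89 and 11.57 on the low-fat (young), high-fat (young), low-fat (old) and high-fat (old) arrays. Its probe sets disagreed. The one used gave age differences of 0.28 and -0.23 on the low-fat and high-fat diets, whereas its 5 probe sets ran from 0.05 to 0.28 and from -0.23 to 0.06. With the mean of the probe sets the differences were 0.14 and -0.04, under 1.2-fold on both diets.

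Rps13, a small subunit protein, gave 9.40, 9.37, 9.12 and 9.48 in the same order, lowest on the old low-fat array, with a diet difference in old mice of 0.37. Rps19, mutated in Diamond-Blackfan anaemia, showed a like order with 8.32, 8.32, 8.06 and 8.35 and a diet difference in old mice of 0.30. Rps27l, a p53-induced relative of Rps27, was 9.37, 9.34, 9.29 and 9.63. It was highest on the old high-fat array, with a diet difference of 0.33 in old mice. Rps15a, also of the small subunit, gave 8.51, 8.59, 8.55 and 8.36, lowest on the old high-fat array.

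The other members named by rule had smaller differences than Rpl10a. Rps3a1, a small subunit protein with 1 probe set, gave 9.75 on the young low-fat, 10.01 on the young high-fat, 9.88 on the old low-fat and 9.99 on the old high-fat array, higher on the high-fat array by 0.27 in young and 0.10 in old mice. Rpl14, of the large subunit and also with 1 probe set, gave 8.49, 8.30, 8.56 and 8.22, lower by 1.14-fold and 1.27-fold. In the additive fit described below its mean diet difference was -0.26 ± 0.16 (SE, 4 arrays, limma adjusted p = 1). Rpl7, of the large subunit, gave 11.46, 11.68, 11.49 and 11.56, and Rpl7l1, which resembles it, gave 8.94, 9.19, 9.13 and 9.10. The young high-fat array gave the highest signal of both. Rps19bp1, no ribosomal protein itself, gave 8.80, 8.66, 8.61 and 8.76, lowest on the old low-fat array.

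Members with known roles outside the ribosome are given next. Rps6, the substrate of S6 kinase, gave 12.89, 12.90, 12.84 and 12.97 on the low-fat (young), high-fat (young), low-fat (old) and high-fat (old) arrays. Rpl5, which binds Mdm2 when ribosome assembly fails, gave 12.39, 12.43, 12.41 and 12.44, a range of 0.05. Rpl26, which also binds the mRNA of p53, gave 7.52, 7.59, 7.64 and 7.43 from 1 probe set. Of the X-linked members, Rps4x gave 11.27, 11.44, 11.28 and 11.39, higher on both high-fat arrays by 0.17 in young and 0.11 in old mice.

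Members with several probe sets allow a check within each array. The spread of the age difference between probe sets of a gene had a median of 0.06 log2 units over 38 genes on each diet, and it reached 0.23 under low-fat and 0.29 under high-fat feeding. It was larger than the size of the difference itself in 16 of the 38 genes under low-fat and in 19 under high-fat feeding. All probe sets of a gene shared 1 sign in 28 of 38 genes under low-fat and in 25 under high-fat feeding. Probe sets of a gene are not independent, since they read the same RNA pool and can share probes with each other and with processed pseudogene copies. In 5 genes, Rpl41 among them, 2 or more probe sets had identical values on all 4 arrays.

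**Figure D4:**
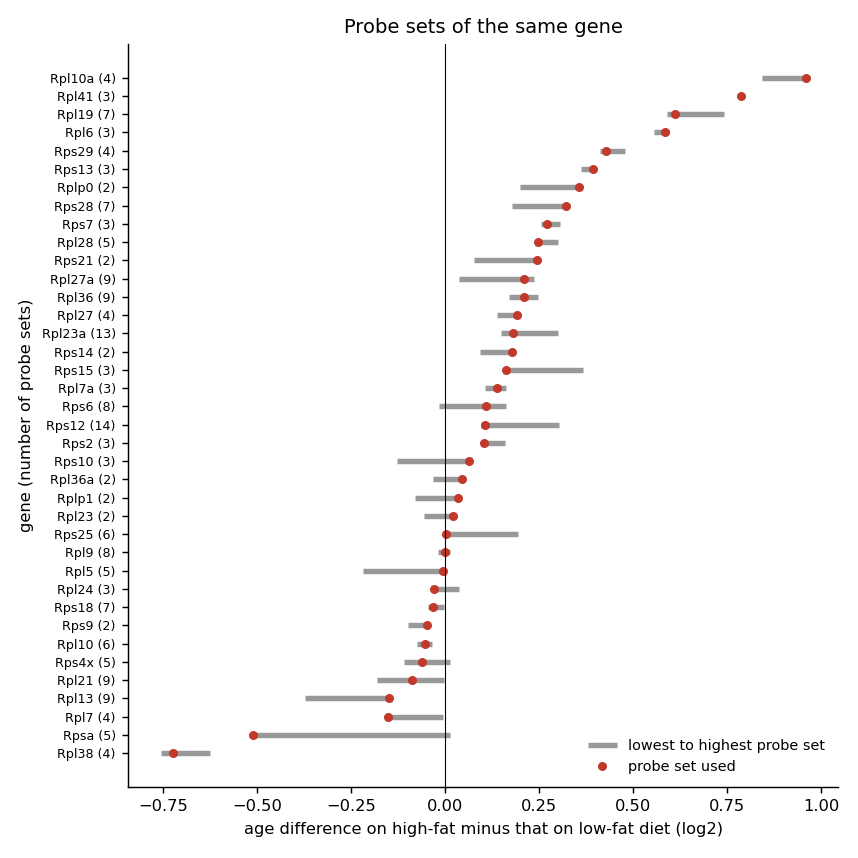
Age difference on the high-fat minus that on the low-fat diet (log2, horizontal axis) for the 38 members with several probe sets (vertical axis, number of probe sets in brackets). Grey bars span the lowest to the highest probe set and red points mark the one used. Rpl10a, from 0.84 to 0.96, and Rpl38, from -0.76 to -0.63, lie apart from 0 with all their probe sets, whereas the bar of Rpsa crosses 0.

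The 4 arrays were also fitted together with age and diet as additive terms in limma, a linear model whose error is shared across genes. No member passed a Benjamini-Hochberg adjusted p of 0.05 for age, beside 0.395% of all genes tested, and none for diet, where 0% of genes did. At an unadjusted p under 0.05 the fit took 0 members for age and 0 for diet, against 466 and 91 of the 12667 genes. The standard error of a member's age difference lay between 0.155 and 0.217 log2 units. Rps3 had the largest mean age difference at -0.17 ± 0.18 (SE, 4 arrays, limma adjusted p = 1). What this fit leaves as residual is the age-by-diet difference, so the pairing described above counts as its error.

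Other genes of protein synthesis were set beside the members. The 77 mitochondrial ribosomal proteins, which form the separate ribosome of the mitochondrion, had a median age difference of 0.02 under low-fat and 0.00 under high-fat feeding. Their median diet difference was 0.09 in young and 0.09 in old mice. Of these 77 genes 3 were over 1.2-fold higher and 6 lower with age on the low-fat diet, beside 12.1% and 10.4% of all genes tested. On the high-fat diet 11 were higher and 6 lower, beside 14.8% and 10.3%. For diet in young mice 11 were over 1.2-fold higher and 6 lower, beside 10.8% and 11.4%. For diet in old mice 14 were higher and 1 lower, beside 10.6% and 8.85%. None passed 2.0-fold.

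The 14 translation factors with TOP mRNAs had median age differences of -0.07 and 0.11 on the low-fat and high-fat diets, and 0 passed 2.0-fold. Eif3f, a subunit of the initiation factor eIF3, gave 11.39, 11.08, 11.11 and 11.46 on the low-fat (young), high-fat (young), low-fat (old) and high-fat (old) arrays, higher on the same pair of arrays as Rpl10a. Others of the list were lower on that pair, among them Eef1d with 8.08, 8.22, 8.34 and 8.00 and Nap1l1 with 8.48, 8.74, 8.83 and 8.61. Eef1a1, the factor that brings tRNA to the ribosome, lay between 13.88 and 13.90 on all arrays. Fau, which carries a small subunit protein fused to a ubiquitin-like one, was the only 1 of 4 ribosomal proteins under other names that had a probe set of its own. It gave 12.00, 11.91, 12.01 and 11.62, lowest on the old high-fat array.

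The 49 ribosome biogenesis factors had median age differences of -0.01 and 0.11. With age on the low-fat diet 7 were over 1.2-fold higher and 4 lower, beside 12.1% and 10.4% of all genes tested. For diet in young mice 6 were higher and 4 lower, beside 10.8% and 11.4%. With age on the high-fat diet 9 were over 1.2-fold higher and 0 lower, beside 14.8% and 10.3% of all genes tested. In old mice 12 were over 1.2-fold higher on the high-fat diet and 0 lower, beside 10.6% and 8.85% of all genes. Their median diet difference there was 0.13. Tsr3, which modifies the RNA of the small subunit, passed 2.0-fold for age on the high-fat diet and for diet in old mice. Its signals were 7.93, 7.26, 7.21 and 8.34 in the same order of arrays. The 14 mTOR pathway and TOP regulator genes had median age differences of 0.02 and 0.08. Myc, a driver of ribosome production, gave 8.36, 8.41, 8.49 and 8.66. No p-value was computed for these lists.

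**Figure D5:**
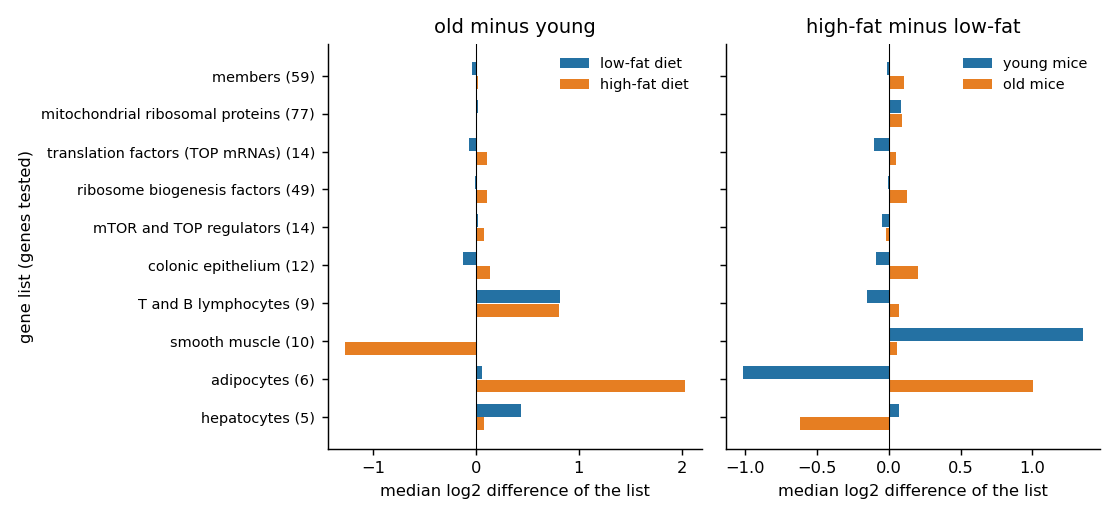
Median log2 difference (horizontal axis) of the members and of 9 other gene lists (vertical axis, genes tested in brackets) for age on each diet (left) and diet at each age (right). Bars of the members and of the other protein synthesis lists stay within 0.13 of 0, whereas the smooth muscle bar reaches 1.35 and the adipocyte bar 2.03.

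The genes whose 4 signals lay nearest to the median profile of the members were Ndufab1, Mrpl38, Lmln, Unc50 and Tmed4, of 11999 genes with a range at least as wide. Likeness was the Euclidean distance of log2 signals, each centred on its mean over the 4 arrays. Ndufab1, the mitochondrial acyl carrier protein, had a distance of 0.0066 and signals of 10.14, 10.13, 10.08 and 10.17 on the low-fat (young), high-fat (young), low-fat (old) and high-fat (old) arrays. With 4 points per gene, such a likeness is a description of these arrays.

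The level of the array changed the counts of small differences. When each array was centred on its median over all probe sets, the median of all genes tested became -0.08 for age on the low-fat diet, 0.08 for age on the high-fat diet, -0.07 for diet in young and 0.09 for diet in old mice. In the same order the members' medians became -0.12, 0.09, -0.08 and 0.18. For age on the low-fat diet 1 member was then over 1.2-fold higher and 14 lower, beside 7.09% and 18.7% of all genes. For age on the high-fat diet 8 were higher and 0 lower, beside 21.4% and 5.84%. For diet in young mice 2 were higher and 8 lower, beside 6.47% and 19% of all genes. For diet in old mice 13 (22%) were higher and 1 lower, beside 18.7% and 4.45%. After quantile normalization over all probe sets, age on the low-fat diet had 2 higher and 8 lower, beside 8.06% and 17.2% of all genes, and age on the high-fat diet 5 and 1, beside 17.8% and 8.13%. Diet in young mice then had 3 and 6, beside 7.33% and 17.5%, and diet in old mice 8 and 3, beside 14.7% and 6.62%. No member passed 2.0-fold under either.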

How the data were processed

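RNA pools of the colon scrapings were hybridized to Affymetrix Mouse Gene 1.0 ST arrays. The deposited values are log2 signals per probe set, which the authors made by RMA (background correction, quantile normalization, probe summary). The RMA version and genome build are not given in the sources used here. Of 35556 probe sets, 21789 had 1 gene in the annotation, 1621 several and 12146 none; those with several were not used to name a gene. The deposited identifiers are those of the manufacturer, not the Entrez-based probe sets that the study's methods describe. Genes with a linear signal over 50 on at least 1 array were tested, and pancreatic acinar genes were removed by a list. Thresholds were 2.0-fold, after the study, and 1.2-fold. With 1 array per group single comparisons have no test, and the number of arrays limits the precision. The additive fit used limma 3.58.1 in R 4.3.3 (1 residual and 8.93 prior degrees of freedom) and was tested on simulated data. It was not run by the study. Promoters came from RefSeq (GRCm38.p6). The members, gene lists and alternatives were chosen with earlier results of these data known. Genes were named by rule: Rplp0, Rplp1, Rplp2, Rpsa, the 5 highest and lowest members of each comparison, the 5 widest and narrowest ranges, paralogs, X-linked members, members with known other roles, and the extremes of each list. The fits of Rps3 and Rpl14, and Rpl3, Rpl11, Rpl13a, Rps24, Eif3f, Eef1a1 and Myc were given after their values were seen. So were Krt19, Slc26a3, Lgals4 and Eef1d. Alternatives were other floors, centring, quantile normalization, other uses of probe sets, fewer members, a 1.5-fold threshold and other settings of the fit. Medians over all 217 single-gene probe sets and over 239 probe sets naming several genes were added after the data were seen. Some genes are not reported here.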

Additional observations from a re-analysis of the deposited data

Results flagged for a closer look

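In 4 members signals differed in opposite directions between groups by more than 1.2-fold each way. These are 3 of 59 members for age and 4 of 59 for diet, near the 5.87% and 6.66% of all genes tested that did so. The difference between the groups was not tested, because each group has 1 array. The age difference of Rpl10a was -0.36 log2 units under low-fat and 0.60 under high-fat feeding, that of Rpl41 was -0.42 and 0.37, and that of Rpl38 was 0.42 and -0.30. The diet difference of Rpl10a was -0.61 in young and 0.35 in old mice, that of Rpl41 was -0.37 and 0.42, that of Rpl6 was -0.28 and 0.31, and that of Rpl38 was 0.34 and -0.38. Age and diet differences of a gene are made from the same 4 arrays, so both sets of values describe 1 pattern.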

How the results depend on the processing

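Medians of the members moved by less than 0.1 log2 units under every alternative. They ran from -0.12 to -0.0002 for age on the low-fat diet, 0.01 to 0.09 for age on the high-fat diet, -0.08 to 0.004 for diet in young and 0.05 to 0.18 for diet in old mice, so the sign of diet in young mice was not fixed. Counts over 1.2-fold moved most. With each array centred on its median they became, higher and lower, 1 and 14 for age on the low-fat diet (7.09% and 18.7% of all genes), 8 and 0 for age on the high-fat diet (21.4% and 5.84%), 2 and 8 for diet in young (6.47% and 19%) and 13 and 1 for diet in old mice (18.7% and 4.45%). Quantile normalization gave 8 lower for age on the low-fat diet, beside 17.2% of all genes. The mean of a gene's probe sets gave 1 higher there (12.2%), and no floor gave 2 lower for age on the high-fat diet (9.59%). Over the 21 members with 1 probe set the counts, higher and lower, were 0 and 1 for age on the low-fat diet (12.2% and 10.4% of all genes), 1 and 0 for age on the high-fat diet (14.8% and 10.3%), 3 and 1 for diet in young (10.8% and 11.4%) and 3 and 1 for diet in old mice (10.6% and 8.86%). At 1.5-fold, 1 member passed for age on the high-fat diet and 1 for diet in young mice, which is Rpl10a. No setting of the fit passed a member. Fits of age or diet alone without 1 array leave a group of 1 array and 1 residual degree of freedom, so their counts of 0 members say nothing about stability. At an unadjusted p under 0.05 they took 1 member for age without the young low-fat and 1 without the young high-fat array, and 0 in the other such fits. Fewer members were counted in the set of 21, and otherwise the cause was not tested. For named members 355 values moved by less than 0.1 and 5 by more, those of Rpsa (0.14, -0.04 and -0.03 with the mean of its probe sets), Rps25 and Rplp2. No paired analysis was possible because each group has 1 array. Signals below the floor of 50 bear no fold, and with 1 array per group no spread between pools was measured.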
